A study of Mus musculus with 16 samples.

Results

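The comparison described here set the livers of mice that drank antibiotic water against those of mice on control water, all given a slurry of standard chow, and it took in every expressed gene. Its members are the 8 libraries labelled with a chow slurry, 4 for each kind of water, of 16 in the series. The series gave C57BL/6 mice, an inbred laboratory strain, 1 gavage of a chow or fast food slurry and took the liver 4 h later. All 8 libraries of this comparison therefore share the strain, the chow gavage and the interval after it. They differ by label in the drinking water alone. Which antibiotics were used, their doses, the length of treatment and the age and sex of the mice were not given in the sources at hand. Libraries were made from liver RNA with a messenger RNA kit and sequenced as single reads of 50 bases. The labels assign mice to water at random but do not say that each library is a separate mouse, so p-values measure the spread between these samples, which may in part be technical. "Control" and "antibiotic" below mean the chow groups with each kind of water, and values are listed for replicates 1 to 4 in order. Genes were named by a fixed rule, and those added to complete a count of 5 or fewer were chosen after their values were seen.

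The liver receives the blood that drains the gut, and with it bacterial products, secondary bile acids and short chain fatty acids. Bile acids returning from the gut feed back on their own synthesis, free sterol restrains the transcription factor SREBP2 and its cholesterol synthesis genes, and fatty acids activate PPAR-alpha, the nuclear receptor that drives fatty acid oxidation. Resident macrophages, the Kupffer cells, meet bacterial material first and hepatocytes answer their signals with acute phase and interferon-induced proteins.

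Total counts ran from 8954378 to 18954655 per library. In the 8 chow libraries the share of counts in 4 features that often collect ribosomal RNA reads was 0.12% to 0.302% in control replicates 3 and 4 and antibiotic replicates 1 and 3. It was 2.45% to 8.42% in control replicates 1 and 2 and antibiotic replicates 2 and 4, so the split was even between the waters. Values are counts per 1000000 counts of a library (CPM), scaled by TMM library factors, which were 1.02 to 1.10 in control and 0.781 to 0.95 in antibiotic libraries. On the first principal component of all 16 libraries, which held 38.8% of the variance, the antibiotic libraries lay at 36.5 to 74.1 and the control libraries at -33.4 to -2.44. All 13 defining hepatocyte markers passed the filter on low counts, and RNA of the Y-linked genes Ddx3y, Uty, Eif2s3y and Kdm5d was counted in all 16 libraries (at least 202 counts) with at most 16 counts of Xist.

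A large part of the liver transcriptome differed between the waters after chow. Of 13180 genes tested, 3138 (23.8%) passed the threshold of an adjusted p of 0.05 in edgeR's quasi-likelihood test, 1393 higher (10.6%) and 1745 lower (13.2%) with antibiotic. Among them 388 rose and 744 fell by 2-fold or more. The shares of 10.6% and 13.2% are the background for the counts of list members given below. The median log2 fold change over all tested genes was -0.00575 with TMM factors, which place most genes near 0 by construction, and 0.0139 with the RLE factors of DESeq2. With each of the 8 chow libraries left out in turn, 1798 genes (13.6% of those tested) stayed called in every fit, 774 higher and 1024 lower. Fits to the libraries with a low and with a high rRNA-like share, 2 against 2 each, gave 3319 and 3 calls, and on the high side 2313 genes had an unadjusted p under 0.05. The low-share fit also held the fast food control libraries, and the high-share fit fast food antibiotic replicates 1, 2 and 4.

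**Figure D1:**
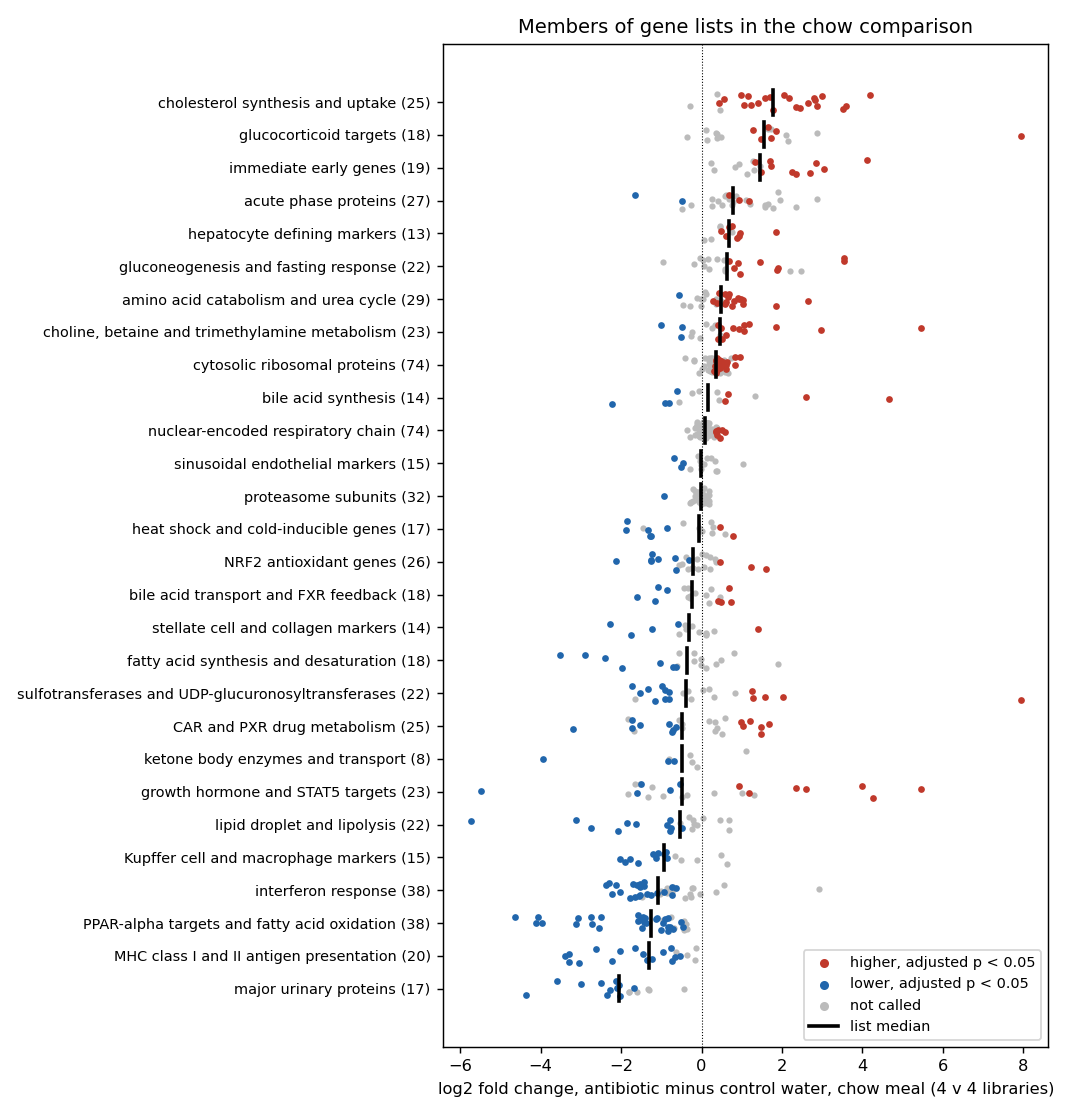
Each point is a tested gene of the named list, placed by its log2 fold change (antibiotic minus control water, chow meal, 4 against 4 libraries) with red for higher and blue for lower at an adjusted p under 0.05, grey for not called, and a black bar at the list median. The number of tested genes is in parentheses, and cholesterol synthesis stands at the upper end (median 1.79) with PPAR-alpha targets (-1.26), MHC genes (-1.30) and major urinary proteins (-2.05) at the lower.

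Sult1e1, the estrogen sulfotransferase, was among the genes with the largest rises. It was at 0, 0.549, 0.0991 and 0.523 CPM in the control libraries and at 106, 124, 61.9 and 26 CPM in the antibiotic libraries. Every control library was near the floor of detection and every antibiotic library was far above it, a log2 fold change of 7.95 ± 1.02 (SE, adjusted p = 0.000238). Ptgfr, the prostaglandin F receptor, rose from between 0.215 and 0.347 to between 6.96 and 21.9 CPM (5.48 ± 0.46). Other large rises were in Cyp2c70 (4.66 ± 0.88), the mouse enzyme that makes muricholic acids, Cyp2c69 (4.28 ± 0.96), the mTOR inhibitor Ddit4 (4.45 ± 0.97), the cytokine signal inhibitor Socs2 (4.27 ± 0.56), the thyroxine carrier Serpina7 (4.22 ± 1.11), the transcription factor Cux2 (3.99 ± 0.76), Myom3 (3.86 ± 0.48) and Tes (3.64 ± 0.33). Rises of like size in Fdps, Sqle, Igfbp1 and Lpin1 are described with their groups.

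G0s2, an inhibitor of the triglyceride lipase of lipid droplets, was among the genes with the largest falls. It went from 98.6, 159, 156 and 103 CPM to 2.56, 4.55, 1.83 and 0.284 CPM, with every antibiotic library below 5 CPM (-5.74 ± 0.95, adjusted p = 0.00119). Elovl3, an elongase of very long chain fatty acids, fell from between 87 and 149 to between 1.22 and 4.13 CPM (-5.48 ± 0.81). Mup21 (-4.37 ± 0.79), a major urinary protein, Klhdc7a (-4.36 ± 0.42), the hepatokine subunit gene Inhbe (-4.14 ± 0.59), the carbonic anhydrase gene Car3 (-3.89 ± 0.77), the receptor gene Tlr12 (-3.62 ± 0.54), the laminin gene Lamb3 (-3.48 ± 0.63) and Paqr7 (-3.29 ± 0.55) followed. The naming rule took these rises and falls only from genes whose groups did not overlap, which held for 24.8% of all tested genes, and which stayed called with any chow library left out, so neither property is a result.

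Short stretches of promoter show the letters searched for in the cholesterol synthesis and PPAR-alpha lists. Promoters were the 250 bases before each RefSeq start (GRCm38.p6), read on both strands. A sterol response element of the letters TCACNCCAC stood in 1 of the 17 cholesterol genes with an entry, Hmgcs1, against 1.22% of 27025 genes. The direct repeat of AGGTCA with 1 base between the copies stood in 0 of 29 PPAR-alpha list genes with an entry and in 0.0407% of all genes. The looser repeat of AGGNCA with the same spacing, which includes the first, stood in 1 of the 29, Fabp1, against 0.4% of all genes. Capitals mark the matched letters, which lie 137 to 129 bases before the start on the gene's strand in Hmgcs1 (chr13:119690184-119690224, plus strand) and 67 to 55 bases before it, read on the opposite strand, in Fabp1 (chr6:71199782-71199826, plus strand). These distances count from the RefSeq start, which in Fabp1 lies downstream of the start in the annotation used for gene coordinates below.
Hmgcs1: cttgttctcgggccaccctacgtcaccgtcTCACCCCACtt
Fabp1: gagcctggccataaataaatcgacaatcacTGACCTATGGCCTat
A match describes letters, and its absence from the other genes says nothing of the factor.

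PPAR-alpha targets and genes of fatty acid oxidation fell together. Of 39 listed genes 38 were in the table and tested, and of these 31 were lower and 0 higher, against 13.2% lower of all tested genes, and 38 of 38 had a negative log2 fold change, with a median of -1.26 beside -0.00575 over all genes. Fabp1, the cytosolic fatty acid carrier of hepatocytes (GRCm38 chromosome 6, 71199827 to 71205023), was at 3894, 2489, 4325 and 4352 CPM with control water and at 132, 113, 250.4 and 372 CPM with antibiotic. The highest antibiotic library was several times below the lowest control library (-4.12 ± 0.51, adjusted p = 0.00014). Ehhadh, the bifunctional enzyme of peroxisomal oxidation (chromosome 16, 21761287 to 21787807), went from 2621, 1816, 2649.9 and 3176 to 113, 128, 228 and 192 CPM (-3.96 ± 0.58, adjusted p = 0.000488). Acaa1b, the peroxisomal thiolase (-4.65 ± 0.67), the thioesterase gene Acot2 (-3.08 ± 0.36) and the fatty aldehyde dehydrogenase gene Aldh3a2 (-2.50 ± 0.30) also fell.

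The mitochondrial carnitine steps were lower by smaller amounts. Cpt2 fell from between 179.7 and 229 to between 60.9 and 83 CPM (-1.44 ± 0.19) and Cpt1a, which admits fatty acids to mitochondria, from between 1171 and 1409 to between 517 and 933 CPM (-0.78 ± 0.20, adjusted p = 0.00973). The receptor gene itself, Ppara, was at 204, 156, 200.3 and 184 CPM with control and 74.2, 55.1, 85.5 and 31.7 CPM with antibiotic water. Antibiotic replicate 4 was lowest and the groups did not overlap (-1.59 ± 0.28, adjusted p = 0.00107). Fgf21, the fasting hormone induced by PPAR-alpha, fell from 4.19, 5.84, 7.98 and 6.85 CPM to 0.667, 0.525, 0.115 and 0 CPM (-4.08 ± 0.65, adjusted p = 0.000542), a low level in either group. In the fits to the low-share and high-share libraries the median of the list was -1.46 and -1.13. The count of lower members was 28 to 32 with any chow library left out.

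Of 8 ketone body genes 3 were lower and 0 higher. Among the lower, Bdh1, which interconverts the ketone bodies, fell from 275 ± 47 to 17.9 ± 7.44 CPM (mean ± SD, n = 4 each; log2 -3.94 ± 0.41).

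Genes of lipid droplets were lower at 11 of 22 tested members and higher at 0. Besides G0s2 they included Plin2, the main coat protein of liver droplets, at 684, 887, 719 and 988 CPM with control and 99.7, 107, 94.4 and 183 CPM with antibiotic water (-2.76 ± 0.30, adjusted p = 3.64e-05). Every antibiotic library was below every control library, with antibiotic replicate 4 the highest of its group. The monoglyceride lipase gene Mgll (-1.86 ± 0.22), the carboxylesterase gene Ces3a (-1.63 ± 0.29) and the droplet-forming Fitm2 (-0.86 ± 0.15) fell too.

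Of 18 genes of fatty acid synthesis and desaturation 7 were lower and 0 higher. Elovl5 (-2.90 ± 0.44), Elovl2 (-2.41 ± 0.38) and Fads2 (-1.98 ± 0.37), which lengthen and desaturate polyunsaturated fatty acids, all fell, as did the malic enzyme gene Me1 (-0.64 ± 0.14) and Gpam (-1.04 ± 0.23), the first step of glycerolipid synthesis. Scd1, the stearoyl-CoA desaturase, was at 1443, 1510.4, 985 and 4553 CPM in control and 112, 44.4, 508 and 73.8 CPM in antibiotic libraries (-3.52 ± 1.03, adjusted p = 0.026). It lost its call without control replicate 4 or antibiotic replicate 1, 2 or 4, where its adjusted p was at most 0.0752. Fasn, the fatty acid synthase, was 0.81 and not called (adjusted p = 0.0977).

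Cholesterol synthesis and uptake rose almost as a whole. Of 25 tested members 22 were higher and 0 lower, against 10.6% higher of all tested genes, with a median log2 fold change of 1.79, and each of the 22 stayed called with any chow library left out. Sqle, the squalene epoxidase, went from 7.51, 21.8, 10.3 and 11.9 to 217, 190.1, 112 and 101 CPM (3.58 ± 0.80, adjusted p = 0.00655).

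The largest rise of the list was in Fdps, the farnesyl diphosphate synthase, from 5.47, 7.01, 6.74 and 6.12 to 150.4, 178, 85.1 and 50.6 CPM (4.19 ± 0.69, adjusted p = 0.00115). The later steps Lss (2.35 ± 0.33) and Dhcr7 (1.22 ± 0.18) and the sterol carrier Stard4 (1.79 ± 0.30) rose as well. Hmgcs1, chosen after its values were seen because its promoter is shown above, rose from between 88.8 and 95.6 to between 231 and 554 CPM (2.05 ± 0.50). The list median was 1.75 in the low-share and 1.84 in the high-share libraries.

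**Figure D2:**
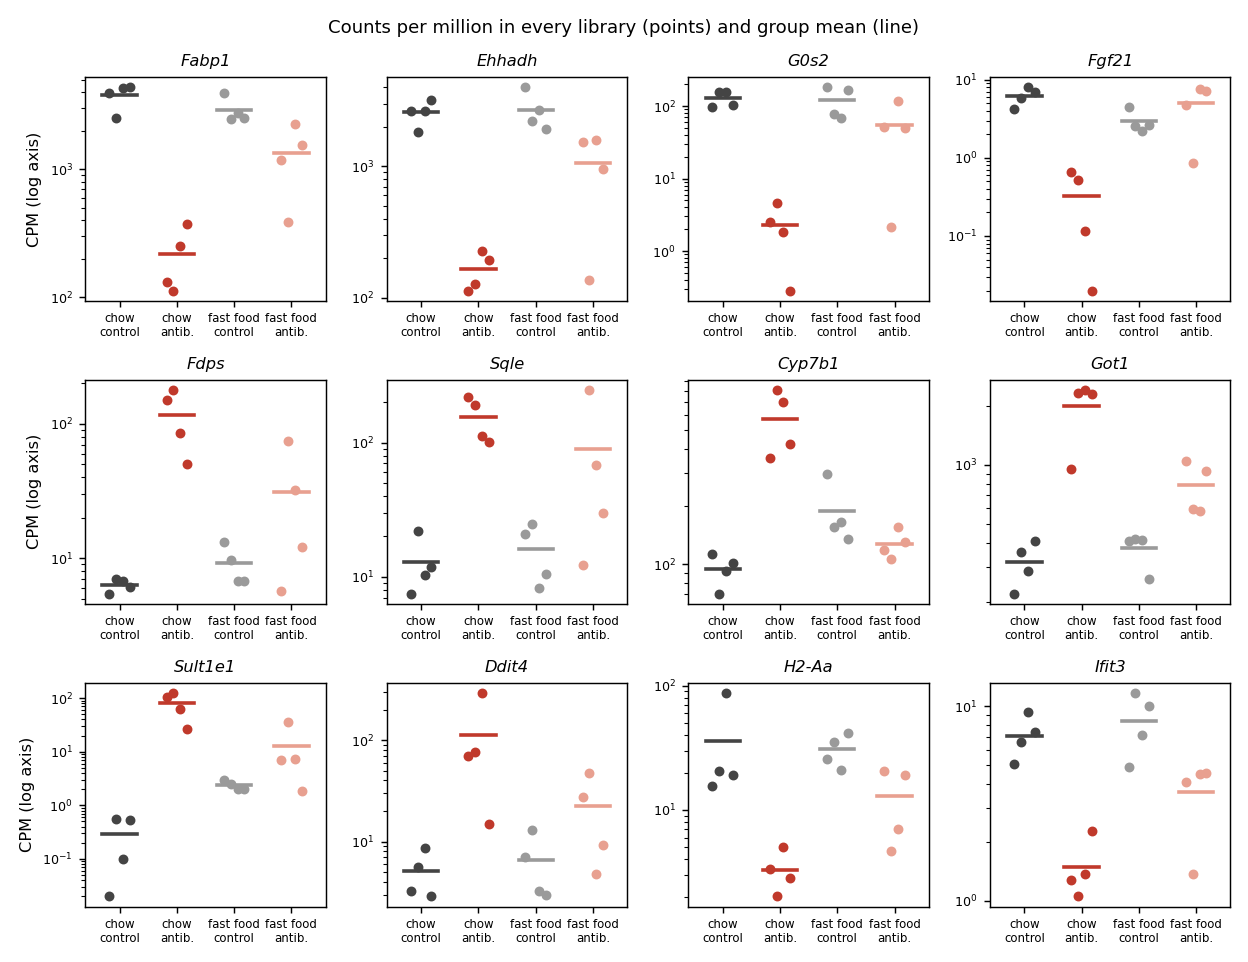
CPM on a log axis for 12 genes in all 16 libraries, by meal and water, with a line at each group mean and a value of 0 drawn at 0.02. The chow antibiotic libraries stand apart from the chow control libraries in every panel, below them for Fabp1, Ehhadh, G0s2, Fgf21, H2-Aa and Ifit3 and above them for the other 6 genes.

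Bile acid synthesis genes moved both ways, with 4 of 14 members higher and 4 lower. Cyp7b1, the oxysterol hydroxylase of the alternative pathway (chromosome 3, 18071950 to 18243338), was at 112, 70.4, 92.7 and 102 CPM with control and 355, 806, 697 and 422 CPM with antibiotic water. The lowest antibiotic library was above the highest control library (2.59 ± 0.29, adjusted p = 4.22e-05). Cyp27a1, the first enzyme of that pathway (0.65 ± 0.15), Cyp2c70 and the bile acid ligase gene Slc27a5 (0.59 ± 0.13) also rose. Hsd17b4 (-0.91 ± 0.14) and Amacr (-0.80 ± 0.14), which shorten the side chain in peroxisomes, fell, as did Hsd3b7 (-0.60).

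Cyp8b1, which sets the share of cholic acid, was at 514, 413, 488 and 477 CPM in control and 53.2, 139, 140.2 and 74.7 CPM in antibiotic libraries without overlap (-2.22 ± 0.68, adjusted p = 0.0308). It kept its call only without control replicate 2 or antibiotic replicate 3, and in the other 6 fits that left out a chow library its adjusted p was up to 0.0798. Cyp7a1, the rate-limiting enzyme of the classical pathway, ranged widely, at 187, 43.8, 358 and 28.6 CPM and 290.3, 317, 927 and 24.3 CPM. The groups overlapped and it was not called (1.34 ± 1.01, adjusted p = 0.364). Nr0b2, the repressor induced by the bile acid receptor FXR, was not called either (-0.43 ± 0.69, adjusted p = 0.689).

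Among transporters and feedback genes 4 of 18 were lower and 4 higher, against 13.2% lower and 10.6% higher of all tested genes. The biliary sterol exporters Abcg5 (-1.08 ± 0.18) and Abcg8 (-0.85 ± 0.22) and the phospholipid exporter Abcb4 (-1.15 ± 0.19) fell, as did Slco1a1 (-1.60). Klb, the coreceptor for the bile acid feedback hormone from the gut, rose from between 62.3 and 88.8 to between 90.8 and 119.7 CPM (0.69 ± 0.17). The other 3 that rose were Abcc4 (0.73), Fgfr4 (0.49) and Slc10a1 (0.40), and the count of higher members was 2 without control replicate 2, 3 or 4 or antibiotic replicate 2.

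Drug-metabolising genes split in both directions. In the list of CAR and PXR targets, nuclear receptors of foreign compounds, 6 of 25 were higher and 8 lower. Cyp3a11, the main Cyp3a enzyme of mouse liver, was at 1623, 1896, 1465 and 1311 CPM with control and 198, 137, 195 and 154 CPM with antibiotic water. Every antibiotic library was far below every control library (-3.20 ± 0.53, adjusted p = 0.00106). Aldh1a1, a retinal dehydrogenase, fell (-1.53 ± 0.27), whereas Cyp2c54 (1.49 ± 0.24), Cyp2c50 (1.49 ± 0.25) and Por (1.03 ± 0.15), the reductase that serves all microsomal P450 enzymes, rose. Cyp2b10, the usual marker of CAR activity, was at 0.496 to 2.2 and 1.03 to 2.06 CPM and was not called (adjusted p = 0.578). The count of lower members was 3 without control replicate 4, antibiotic replicate 2 or antibiotic replicate 4, and 5 without antibiotic replicate 1 or either of the first fast food control libraries (replicates 1 and 2). Reads of near-identical members of the Cyp2c, Cyp3a, Ugt and Gst families can be shared, so their values are less certain.

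Of the conjugating enzymes 5 of 22 were higher and 9 lower. Sulfotransferases Sult1d1 (2.02 ± 0.26), Sult1b1 (1.58 ± 0.25) and Sult1a1 (1.25 ± 0.16) rose with Sult1e1, as did Ugt2a3 (1.28 ± 0.14). The 9 lower members had log2 fold changes from -1.73 (Sult2a8) to -0.80 (Ugt2b34), with 5 Ugt genes among them. Aryl hydrocarbon receptor genes were mixed: Cyp1a2 fell from between 152 and 222 to between 41.6 and 137 CPM (-1.32 ± 0.34) and Cyp1b1, at a low level, rose from between 1.3 and 1.98 to between 2.13 and 3.61 CPM (1.05 ± 0.27).

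Of 26 antioxidant genes regulated by NRF2, 8 were lower and 3 higher, Hmox1 (1.61), Gstm2 (1.23) and Nqo1 (0.47). Gstp1, a glutathione transferase, was at 789, 571, 819 and 794 CPM and fell to 114, 202, 158 and 202 CPM (-2.14 ± 0.29, adjusted p = 0.000198). Gclc, the rate-limiting subunit of glutathione synthesis (-1.27 ± 0.16), Cat, the catalase (-1.09 ± 0.15), Gstm4 (-1.26 ± 0.20) and the epoxide hydrolase gene Ephx1 (-1.23 ± 0.20) fell too.

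Genes that break down amino acids rose at 17 of 29 members and fell at 1, Kmo (-0.57), with a list median of 0.49. Got1, the cytosolic aspartate aminotransferase, was at 219.7, 360.0, 285 and 409 CPM with control and 948, 2329, 2399.6 and 2282 CPM with antibiotic water. Antibiotic replicate 1 was the lowest of its group and above every control library (2.64 ± 0.30, adjusted p = 4.95e-05). Tat, the tyrosine aminotransferase and a classic glucocorticoid target (1.86 ± 0.40), Fah (0.59 ± 0.11) of the tyrosine route, Prodh (0.89 ± 0.17) and the urea cycle entry enzyme gene Cps1 (0.69 ± 0.14) all rose. Cdo1, the cysteine dioxygenase on the way to taurine, rose from between 1464 and 1773 to between 2941 and 3334 CPM (0.95 ± 0.12).

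In choline, betaine and trimethylamine metabolism 13 of 23 genes rose and 3 fell, against 10.6% higher and 13.2% lower of all tested genes. Those that rose included Fmo2, a flavin monooxygenase, at 40.8, 65.2, 68.5 and 62 CPM with control and 539, 491, 481 and 348 CPM with antibiotic water (2.97 ± 0.28, adjusted p = 1.5e-05). Dmgdh, which oxidises dimethylglycine from betaine, rose from 435 ± 42.3 to 1558 ± 303 CPM (1.84 ± 0.21). Gnmt (1.05 ± 0.15) and Ahcy (0.78 ± 0.11), which consume S-adenosylmethionine and its product, rose less. Chdh, the choline dehydrogenase, was among those that fell (-1.01 ± 0.16), a count that was 1 without control replicate 4 or antibiotic replicate 1 or 2.

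Part of the fasting and hormone-responsive program was higher. In the list of gluconeogenesis and fasting 9 of 22 members rose and 0 fell. Igfbp1, an insulin-repressed secreted protein, was at 103, 471, 144 and 78.6 CPM in control and 1382, 1550.0, 3439.6 and 2969 CPM in antibiotic libraries. Control replicate 2 was the highest of its group and still below every antibiotic library (3.55 ± 0.86, adjusted p = 0.0101). Lpin1, a phosphatidate phosphatase (3.55 ± 0.50), the coactivator gene Ppargc1a (1.45 ± 0.37), the p53 target Sesn1 (1.91 ± 0.37) and Trib1 (0.90 ± 0.23) rose. The rate-limiting gluconeogenic genes were not called. Pck1 was at 4217, 4149, 4622 and 3566 and 4073, 4513, 7504 and 933 CPM (adjusted p = 0.953) and G6pc at 460.1, 311, 656 and 387 and 466, 479, 1054 and 43.9 CPM (adjusted p = 0.867), each with antibiotic replicate 3 the highest and antibiotic replicate 4 the lowest of the 8 libraries. Among glucocorticoid targets 6 of 18 rose and 0 fell, with Per1 (1.47 ± 0.24), Fkbp5 (1.27 ± 0.22) and Zbtb16 (1.65 ± 0.34) beside Tat, Dusp1 and Sult1e1, and 11 rose without control replicate 2. The count was 12 without control replicate 2, antibiotic replicate 4 and fast food antibiotic replicate 2 together, the 3 libraries rich in acute phase RNA, and 10 with the replicate block, the rRNA-like share split or DESeq2.

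Targets of growth hormone and its factor STAT5 went both ways. Socs2 and Cux2 rose, as did Igf1 (1.17 ± 0.19), the main hormone secreted in response to growth hormone. Over the list 7 of 23 rose and 5 fell, Elovl3, Slco1a1, Hsd3b2 (from 10.2 ± 3.2 to 3.49 ± 1.04 CPM), Cyp2d9 (-0.80) and the receptor gene Ghr (-0.53), the latter count being 3 without control replicate 3 or antibiotic replicate 2, 2 without control replicate 4, 9 without fast food antibiotic replicate 2, 10 without the 3 libraries rich in acute phase RNA and 8 with DESeq2. Major urinary proteins, which are abundant in males and depend on growth hormone pulses, fell at 11 of 17 and rose at 0, and all 17 had a negative log2 fold change. Mup3 was at 4506, 4303, 4529 and 6791 CPM in control and 448, 988, 1509 and 992 CPM in antibiotic libraries (-2.35 ± 0.41, adjusted p = 0.00121). Mup7 (-2.51 ± 0.59) and Mup10 (-2.10 ± 0.51) fell by similar amounts, and Mup6 (-2.29 ± 0.53) at a far lower level. The Mup genes are near-identical copies between which reads can be shared, and the count was 6 or 7 without control replicate 1 or 4 or antibiotic replicate 1, 2 or 4.

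Antigen presentation and interferon genes were lower with antibiotic water. Of 20 MHC and antigen processing genes 16 fell and 0 rose, and all 20 had a negative log2 fold change (median -1.30). H2-Aa, a chain of MHC class II (chromosome 17, 34282744 to 34287823), was at 15.7, 20.5, 87 and 18.9 CPM in control and 3.33, 2.01, 5.04 and 2.84 CPM in antibiotic libraries. Control replicate 3 was far above the other control libraries, which were themselves above every antibiotic library (-3.39 ± 0.66, adjusted p = 0.00289). H2-Eb1 (-3.30 ± 0.80), H2-Ab1 (-3.29 ± 0.63) and the class II master regulator Ciita (-3.04 ± 0.53) fell alike. Of class I processing genes the peptide transporters Tap1 (-1.65 ± 0.29) and Tap2 (-0.95 ± 0.15) fell, and without control replicate 3 the list median was -0.82 with 14 members called.

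Of 38 interferon response genes 22 fell and 0 rose, with a median of -1.08. Zbp1, a sensor of nucleic acid, was at 3.76, 4.94, 6.89 and 4.6 CPM with control and 0.889, 0.525, 1.15 and 1.42 CPM with antibiotic water (-2.38 ± 0.31, adjusted p = 9.19e-05). The groups did not overlap. Ifit3 (-2.31 ± 0.37), the immunoproteasome subunit gene Psmb9 (-2.23 ± 0.35), the transcription factor gene Irf7 (-1.57 ± 0.22) and the RNA sensor gene Ddx58 (-0.94 ± 0.14) fell too. Antibiotic replicate 4 stood apart from the other 3 of its group on this list: its mean over the members was -0.03 relative to the control mean, against -1.58 to -1.37. Without it 34 members fell, and without antibiotic replicate 1 the count was 14.

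Kupffer cell and macrophage markers fell at 10 of 15 and rose at 0. Cd5l, a protein secreted by Kupffer cells, was at 91, 66, 220.3 and 91 CPM in control and 35.6, 26.2, 42.1 and 32.2 CPM in antibiotic libraries, with control replicate 3 the highest (-1.78 ± 0.31, adjusted p = 0.00121). Timd4 (-1.58 ± 0.26), Clec4f (-1.08 ± 0.22), Csf1r (-1.20 ± 0.26) and the monocyte receptor gene Ccr2 (-1.89 ± 0.36) fell. The summed level of the 16 markers in the table was 403 to 1051 CPM in control and 273 to 329.7 CPM in antibiotic libraries. In bulk tissue fewer cells of a type and less RNA per cell cannot be told apart, and the part of macrophage RNA in the fall of MHC class II and interferon genes was not tested.

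Markers of other cells were counted as well, beside 10.6% higher and 13.2% lower of all tested genes. Sinusoidal endothelial markers summed to 753 to 832.5 CPM in control and 681 to 808 CPM in antibiotic libraries, with 3 of 15 lower, Kdr (-0.68 ± 0.13), Stab1 (-0.50 ± 0.14) and Mrc1 (-0.46 ± 0.11). Stellate and collagen genes summed to 548 to 631 and 364 to 624 CPM, with 4 of 14 lower and 1 higher. The fibrillar collagens Col3a1 (-2.28 ± 0.39), Col1a2 (-1.23 ± 0.24) and Col1a1 (-1.76 ± 0.49) fell with Reln (-0.59 ± 0.19). The higher gene was Acta2 (1.41), which kept its call only without control replicate 4 or antibiotic replicate 1 among the 8 fits that left out a chow library, and lost it without fast food control replicate 1 or 3 or fast food antibiotic replicate 2 or 4. Of 7 tested bile duct markers Spp1 (-1.19 ± 0.35) and Anxa4 (-0.46 ± 0.13) were lower, with sums of 71.8 to 94.6 and 42.9 to 72.7 CPM. That count of 2 was 0 without control replicate 3, and 1 without control replicate 4, antibiotic replicate 2 or 3 or the 3 libraries rich in acute phase RNA and in the fit to the 2 chow groups or with the replicate block. Red cell precursor markers summed to 95.4 to 206.5 and 39.8 to 154.9 CPM, with 1 of 6 lower, Alas2 (-1.48 ± 0.33). Adipocyte and muscle markers summed to 87.1 to 138 and 2.7 to 15.1 CPM, almost all of it from Car3, the only 1 that passed the filter on low counts. Car3 fell (-3.89 ± 0.77) from a mean of 104 ± 23 to 6.75 ± 5.53 CPM, so the sum describes 1 gene and not those cells. Lep, Retn, Myh1 and Mb of that list were at 0 in all 8 libraries. The part of any of these cells in the results was not tested. T, B and NK cell markers were near the floor, with sums of 3.57 to 9.36 CPM in control and 1.4 to 3.26 CPM in antibiotic libraries. Of 13 hepatocyte defining markers 8 rose and 0 fell. Alb, the albumin gene, was at 68903, 77064, 71108 and 93076 CPM with control and 139161, 165657, 107018 and 159228 CPM with antibiotic water (0.88 ± 0.20, adjusted p = 0.00416). Asgr1 (0.95 ± 0.15), Apoa1 (0.93 ± 0.16), Ahsg (0.77 ± 0.13) and Serpina1b (0.60 ± 0.12) rose with it, and the summed hepatocyte markers were 145300 to 182500 and 222200 to 290800 CPM.

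**Figure D3:**
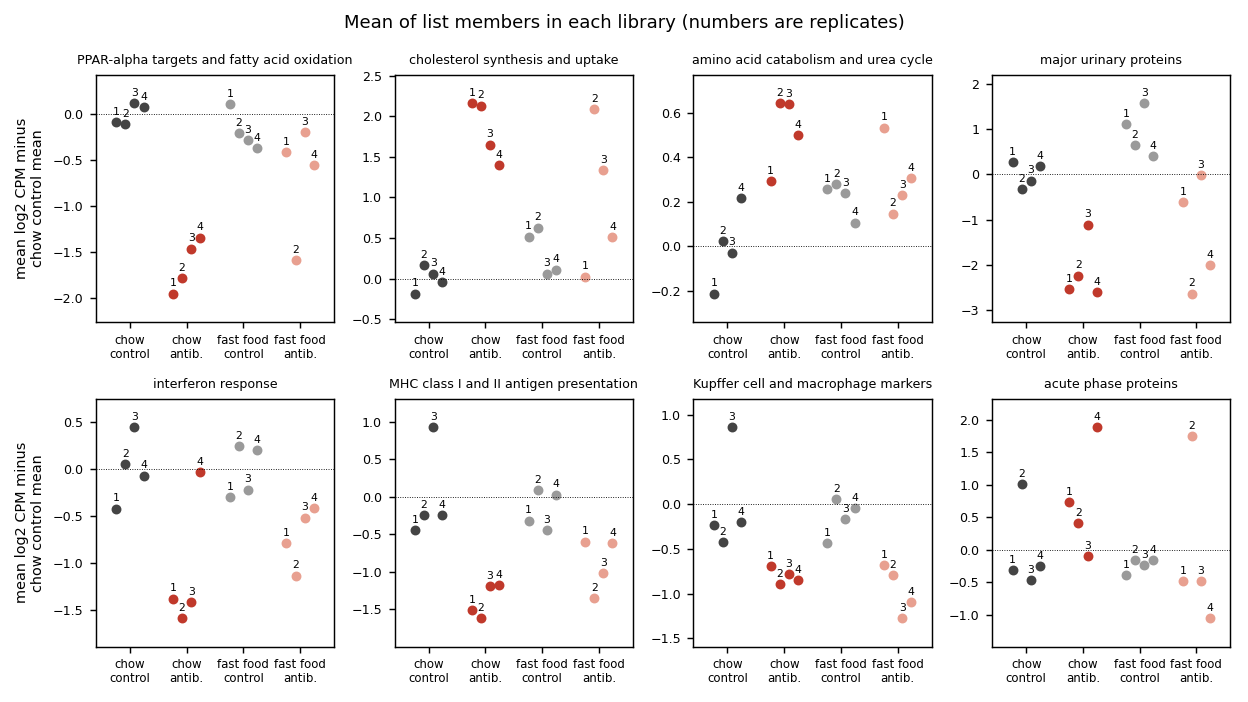
Mean log2 CPM of the tested members of 8 lists in each library, relative to the mean of the chow control libraries, with the replicate number above each point and the 4 meal and water groups side by side. Chow antibiotic libraries lie at 1.39 to 2.16 for cholesterol synthesis and -1.96 to -1.34 for PPAR-alpha targets, and fast food antibiotic replicate 2 lies at 2.09 and -1.59.

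Acute phase genes and genes of endotoxin sensing were each called at 5 of 27 members (18.5%), a share near the 23.8% of all tested genes. Log2 fold changes were nonetheless positive at 23 of 27 acute phase genes (median 0.79) and 21 of 27 endotoxin genes (median 0.61). The median over all tested genes was -0.00575. Of the acute phase genes 3 were higher, Itih3 (1.17 ± 0.22), the copper carrier Cp (0.94 ± 0.21) and C3 (0.68), and 2 lower, Saa4 (-1.66) and Cfb (-0.48). The higher count was 6 without control replicate 2, 10 without fast food antibiotic replicate 2, 14 without these 2 and antibiotic replicate 4, 7 in the fit to the 2 chow groups and 5 with the replicate block. The 3 libraries left out for the count of 14 were picked for their high acute phase RNA, so that count is in part fixed by the choice. The lower count was 1 or 0 when any 1 chow library other than antibiotic replicate 4 was left out, and 1 without a fast food control library or fast food antibiotic replicate 3, and 1 with RLE factors, no filter, the replicate block or the rRNA-like share in the model. Saa1, the inducible serum amyloid, was at 27.7, 336, 11 and 10.6 CPM in control and 83.8, 35.1, 6.25 and 1198 CPM in antibiotic libraries (adjusted p = 0.513). Control replicate 2 and antibiotic replicate 4 stood far above the other libraries of their groups, for Saa1 and likewise for Saa2 and the lipocalin gene Lcn2. Neutrophil markers showed the same 2 libraries at 15.8 and 101 CPM in sum, against 3.03 to 7.16 CPM in the other 6, and their part in these values was not tested. Hamp, the iron hormone hepcidin, rose from 298, 522, 336 and 231 to 767, 902, 839 and 1136 CPM (1.39 ± 0.29, adjusted p = 0.00347), and its paralog Hamp2 rose at a far lower level (1.47 ± 0.33).

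Of 27 genes of endotoxin sensing 4 were higher, Relb (2.72), Rela (0.88), Traf6 (0.61) and Pglyrp2 (0.49), and 1 lower. That 1 was Tlr5, the flagellin receptor, which fell from 6.98, 7.35, 5.35 and 5.75 to 0.389, 1.05, 1.03 and 1.56 CPM (-2.75 ± 0.46, adjusted p = 0.000642) without overlap. The endotoxin coreceptor gene Cd14 (1.89 ± 0.92, adjusted p = 0.155) and the carrier gene Lbp (0.59 ± 0.39, adjusted p = 0.299) were not called. The 4 higher members were 1 without control replicate 1 or 3, and 2 without control replicate 4, antibiotic replicate 4, fast food control replicate 1 or 3 or fast food antibiotic replicate 1, and the lower count was 3 without antibiotic replicate 4.

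Immediate early genes, induced within minutes of a stimulus, were positive at 19 of 19 members, with 10 called higher and a median of 1.46. Myc rose from 5.58, 7.83, 2.18 and 4.76 to 10.1, 13.8, 49.1 and 21.7 CPM (2.24 ± 0.54), and Ier2 (1.71 ± 0.39), Dusp1 (1.72 ± 0.46) and Klf4 (1.48 ± 0.39) also rose. This count depended on single libraries: it was 4 without control replicate 1, 3 or 4, 6 without antibiotic replicate 4, 16 without control replicate 2, 17 without the 3 libraries rich in acute phase RNA and 5 in the fit to the 2 chow groups.

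Several chaperone genes fell. Among heat shock and cold-inducible genes 6 of 17 were lower and 2 higher. Dnaja1, a cochaperone, was at 111, 92.2, 117 and 95.6 CPM and 44.4, 43.3, 48.6 and 38.6 CPM (-1.25 ± 0.13, adjusted p = 1.61e-05). Fkbp4 (-1.27 ± 0.17), Hsph1 (-1.85 ± 0.33) and Chordc1 (-0.85 ± 0.17), all partners of the large chaperones, fell, while the cold-inducible Cirbp (0.78 ± 0.16) and the factor gene Hsf1 (0.46) rose. Hsf1 lost its call in 5 of the 8 fits that left out a chow library, and the count of 2 was 1 without control replicate 1, 3 or 4, antibiotic replicate 3, any fast food control library or fast food antibiotic replicate 3. Atf4, the main factor of the integrated stress response, rose from between 51.8 and 76.4 to between 97 and 147 CPM (0.97 ± 0.20), and 6 of 19 genes of its list were higher and 3 lower, Fgf21, Vldlr (-0.95) and Shmt2 (-0.39), the first count being 3 without control replicate 1 or 3 or antibiotic replicate 4.

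Cytosolic ribosomal protein genes were higher by small amounts. Of 74 tested, 28 rose and 0 fell, and 70 were positive, with a median of 0.37. Of the 28, 12 stayed called with any chow library left out. Rps20 went from 41.5, 50.4, 51.1 and 41.9 to 67.1, 72.1, 65.1 and 80.1 CPM (0.62 ± 0.12) and Rpl10 from 10.1, 16.6, 11.8 and 9.31 to 22.6, 21.7, 20.8 and 20.7 CPM (0.84 ± 0.20). The count was 16 without control replicate 1 or antibiotic replicate 2 and 17 without control replicate 4. The list of proteasome genes, in contrast, had 1 of 32 members called (2 without antibiotic replicate 3), with a median of -0.02. The called gene was not a subunit but Nfe2l1, the factor that induces proteasome genes. It fell from 98.6 ± 7.05 to 51.9 ± 2.53 CPM (-0.93 ± 0.10, adjusted p = 2.04e-05).

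Of the genes named here the lowest p was that of Bcl2l11, which encodes the death-promoting protein Bim. It was at 10.7, 11.9, 11.5 and 9.83 CPM in control and 33.8, 42.8, 49.5 and 55 CPM in antibiotic libraries (2.04 ± 0.14, adjusted p = 5.33e-07). Ccnd1, the cyclin of growth factor signalling, fell from 14.2, 10.1, 14 and 20.2 to 2.28, 3.07, 3.67 and 2.13 CPM (-2.37 ± 0.32), and Rdh9, a retinol dehydrogenase, from between 73.3 and 101 to between 31 and 36.9 CPM (-1.27 ± 0.13).

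The effect of the water was then set against that after the fast food slurry, in libraries that the chow comparison does not share. With fast food, 790 genes (5.99%) differed between the waters, 497 higher and 293 lower with antibiotic. The difference of the water effect between the meals, tested as an interaction, passed at 519 genes (3.94%), 208 higher and 311 lower with chow. Of the 3138 genes called with chow, 440 differed between the meals, a share raised by the choice of genes on the chow effect. The fast food libraries entered that choice only through the shared filter, scaling and estimate of the spread. In them 2415 of the 3138 had the same sign as with chow, and their median effect in the chow direction was 0.26. The share of the same sign over all tested genes was not counted. The sign count and the median include fast food antibiotic replicate 2, which lay among the chow antibiotic libraries on the first principal component. Neither was recomputed without it.

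Among the 12 genes of lowest interaction p, Cyp7b1 had a water effect of 2.59 ± 0.29 with chow and -0.56 ± 0.27 with fast food, a difference of 3.15 ± 0.39 (adjusted p = 0.00199). With fast food it was at 135 to 295 CPM in control and 106 to 157 CPM in antibiotic libraries, groups that overlap. Bcl2l11 differed by 1.52 ± 0.19 (adjusted p = 0.00199), its effect with fast food being 0.52 ± 0.14. Nfe2l1 differed by -1.06 ± 0.14. Further genes with a higher effect under chow were Gpld1 (1.29 ± 0.18), a lipase of anchored proteins, the amylase gene Amy1 (1.30 ± 0.20) and Ugt2a3 (1.33 ± 0.19). Lower effects under chow were found for Pgm3 (-1.78 ± 0.25) of sugar nucleotide synthesis, the nucleotide gene Prps2 (-1.53 ± 0.22), Dnaja1 (-1.14 ± 0.18), the receptor gene Gabbr2 (-1.91 ± 0.30) and the chemokine gene Ccl25 (-1.62 ± 0.24). Ccl25 and Gabbr2 fell with chow (-0.49 ± 0.17 and -0.80 ± 0.21) and rose with fast food (1.13 ± 0.16 and 1.11 ± 0.21), although Ccl25 kept its chow call in 2 of the 8 fits that left out a library.

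Of all 13180 tested genes 293 were lower and 497 higher with fast food, and 3.94% differed between the meals. Of the lists, PPAR-alpha targets were lower at 4 of 38 with fast food, with a median of -0.40. The 4 were Aldh3a2 (-1.16 ± 0.29), Acaa2 (-0.64 ± 0.14), Acadm (-0.63 ± 0.17) and Eci2 (-0.49 ± 0.14). Among the 38, 8 differed between the meals. The widest of those differences were in Fgf21 (-4.86 ± 0.82), Acaa1b (-3.27 ± 0.83) and Fabp1 (-3.00 ± 0.65). Cholesterol genes were higher at 2 of 25 with fast food, the factor gene Srebf2 (1.03 ± 0.25) and Dhcr7 (0.61 ± 0.17), with a median of 0.84. Of the 25, 1 differed between the meals, Tm7sf2 (0.86 ± 0.21), a share near that of all tested genes. Major urinary proteins were lower at 6 of 17 with fast food, with a median of -1.80.

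These comparisons between meals rest on few libraries. Fast food antibiotic replicate 2 lay at 45.4 on the first principal component, among the chow antibiotic libraries, with the other 3 of its group at -16.1 to -10. Without it the interaction passed at 1494 genes and the fast food comparison at 378. With 1 of the other libraries left out, the interaction count fell below 519 by more than 1.5 times without chow control replicate 1 (174) or 2 (290), chow antibiotic replicate 1 (327), 2 (264) or 3 (324), fast food control replicate 1 (224), 2 (219) or 3 (187) and fast food antibiotic replicate 1 (328), 3 (307) or 4 (164). The rRNA-like share moved with water after fast food, at 0.163% to 0.338% in the 4 control libraries and 2.71% to 8.23% in 3 of the 4 antibiotic libraries. With the share as a covariate the interaction passed at 143 genes and the fast food comparison at 0 (edgeR; 1578 genes had an unadjusted p under 0.05, and DESeq2 called 1547 without the covariate), while the chow comparison gave 3233.

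**Figure D4:**
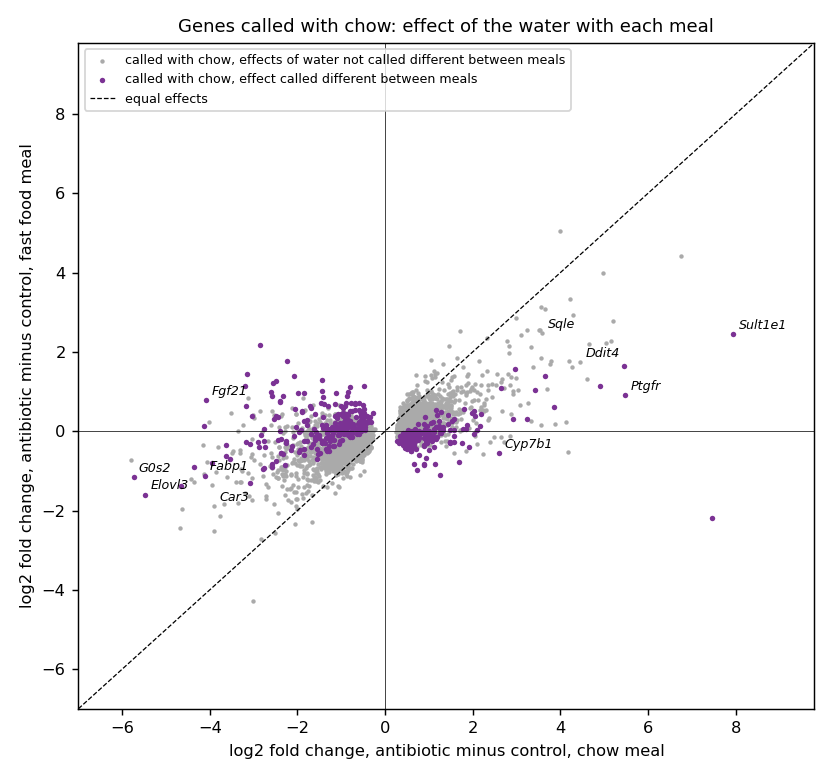
Genes called in the chow comparison, with the log2 fold change of antibiotic against control water after chow on the horizontal axis and after fast food on the vertical axis, 4 libraries in each group. Purple points are the 440 genes whose effect differed between the meals (adjusted p under 0.05). Genes were chosen on the horizontal axis, so distance from the line is in part fixed by that choice. The dashed line marks equal effects.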

How the data were processed

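Gene counts of mouse liver RNA were used as the authors deposited them, whole-number counts per Ensembl gene in 1 table of 16 libraries. FastQC, cutadapt, STAR, HTSeq, DESeq2 and edgeR and the build GRCm38.p6 are named in the submitters' processing notes, and neither versions nor the strand setting were given in the sources at hand. Without a known strand setting, reads of overlapping antisense genes cannot be told apart. Symbols and coordinates came from the GENCODE M21 annotation, which matched 24942 of 25006 identifiers, and promoter sequences from RefSeq.

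Genes passed edgeR's filterByExpr with a minimum count of 10, libraries were scaled by TMM, and edgeR 4.0.16 (R 4.3.3) fitted the 4 groups of 4 in 1 quasi-likelihood model, so that they share an estimate of the spread. P-values were adjusted by the Benjamini-Hochberg method over all 13180 genes, and the water effects with each meal and their difference were contrasts of that model. Log2 fold changes are antibiotic minus control, and standard errors were the fold change divided by the root of the F value. Totals of 8954378 to 18954655 counts set the precision. In simulated counts for 13022 genes of the chow comparison, 70% of genes changed 2-fold and 93% of those changed 4-fold were recovered, with 5 false among 168 calls. The simulation changed 200 genes, all with a mean above 1 CPM, and drew independent noise, without libraries that stand apart from their group. Its rates may therefore differ from those of the real data, and the shares recovered do not cover genes of a lower mean.

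The members and 47 gene lists (1016 genes, 916 tested) were chosen with earlier results of these data known. Named genes were the 15 largest rises and falls that kept their call without each chow library, did not overlap and had a mean log2 CPM of at least 1, up to 5 called members of each list with at least 3 calls, a preset set including Cyp7a1 and Fasn, and the 12 genes of lowest interaction p. Alternatives were other scaling, filters, tools and covariates, leaving out each library, and a block for the replicate number. Correlations of deviations of same-numbered chow libraries were 0.0362, -0.138, 0.148 and -0.222, so the numbers were not used as pairs. Results of some genes are not reported here.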

Additional observations from a re-analysis of the deposited data

Results flagged for a closer look

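Among 448 groups of 4 libraries, 44 had 1 library beyond Dixon's 95% limit for its distance from the others. For normally distributed values chance gives about 1 in 20, but the limit was applied to CPM, which need not be so distributed. A lone nonzero value, as in Moxd1 control replicate 1 or Gbp2b antibiotic replicate 1, passes it in any case. The number of flags is therefore no measure of an excess. The values below are CPM. The largest number, 14, belonged to antibiotic replicate 4: Acadm (321), Acot2 (5.4), Cd14 (77.7), Cyp2c69 (22.6), Hmox1 (158), Ier2 (74.8), Lcn2 (689), Plin2 (183), Rela (81.7), Relb (41.2), Saa1 (1198), Saa2 (1264), Traf6 (50.3) and neutrophil markers in sum (101). Control replicate 3 stood apart at Cd5l (220), Cyp1b1 (1.98), Gbp2b (11.6), H2-Aa (87), H2-Ab1 (57.6), H2-Eb1 (57.9), Klb (88.8) and Rdh9 (101). In control replicate 2 the outlying values were Gstp1 (571), Igfbp1 (471), Inhbe (67.8), Lcn2 (103), Saa1 (336), Saa2 (240), Shmt2 (98.3) and neutrophil markers in sum (15.8). Antibiotic replicate 3 lay away from its group for Aldh1a1 (516), Kmo (372), Per1 (66.6), Psmb9 (3.1) and Scd1 (508). In antibiotic replicate 1 these were Gbp2b (0.0555), Got1 (948) and Klb (90.8). Control replicate 4 did so at Mup3 (6791), Nr0b2 (27.5) and Scd1 (4553). For antibiotic replicate 2 they were Fah (814) and Prps2 (6.39). Control replicate 1 was apart for Moxd1 (0.107). Antibiotic replicate 4 and control replicate 2 were also the highest of their groups in the neutrophil genes, and the part of these cells in their values was not tested.

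Of 214 genes named, 63 had a water effect that differed between the meals by the interaction term (edgeR, adjusted p under 0.05), against 3.94% of all tested genes. The naming rule took in genes of lowest interaction p and of largest chow effect, so this share is in part fixed by the choice. Each value is the log2 effect with chow minus that with fast food. The effect was lower with chow by the widest margin in Fgf21 (-4.86), G0s2 (-4.58), Inhbe (-4.26), Elovl3 (-3.88), Klhdc7a (-3.46), Tlr12 (-3.28), Acaa1b (-3.27), Bdh1 (-3.14), Fabp1 (-3.00) and Acot2 (-2.75). Margins below those were found in Elovl5 (-2.62), Plin2 (-2.52), Elovl2 (-2.41), Tlr5 (-2.35), Hsph1 (-2.11), Gabbr2 (-1.91), Zbp1 (-1.84), Ccnd1 (-1.82), Pgm3 (-1.78) and Gstp1 (-1.66). The smallest negative differences were in Ccl25 (-1.62), Prps2 (-1.53), Ppara (-1.45), Mgll (-1.26), Cpt2 (-1.16), Dnaja1 (-1.14), Gstm4 (-1.12), Nfe2l1 (-1.06), Chdh (-1.02) and Stab1 (-0.91). The effect was higher with chow by most in Moxd1 (9.64), Sult1e1 (5.50), Ptgfr (4.57), Myom3 (3.25), Cyp7b1 (3.15), Tes (2.24), Sult1d1 (2.08), Dmgdh (1.79), Cyp2c50 (1.79), Cyp2c54 (1.76) and Hamp2 (1.73). Next came Got1 (1.57), Sult1b1 (1.53), Bcl2l11 (1.52), Fmo2 (1.40), Cirbp (1.38), Ugt2a3 (1.33), Amy1 (1.30), Gpld1 (1.29), Cry1 (1.21), Gnmt (1.17) and Asgr1 (1.16). The smallest positive differences were in Apoc3 (1.11), Prodh (1.07), Apoh (1.03), Slc27a5 (1.02), Apoa1 (0.98), Cyp27a1 (0.94), Tm7sf2 (0.86), Cdo1 (0.82), Ahcy (0.79), Serpina1b (0.77) and Fah (0.65).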

How the results depend on the processing

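Of 200 called genes named above, 168 kept their call without each of the 8 chow libraries, and 32 lost it in at least 1 such fit. The number of fits that kept it was 1 for Saa4 and Npas2, 2 for Acta2, C3, Dbp, Slc10a1, Ccl25 and Cyp8b1, 3 for Nqo1, Slco1a1, Rela, Reln, Nr1d1 and Hsf1, 4 for Eci2, Cfb, Scd1, Relb and Fgfr4, 5 for Ghr and Anxa4, 6 for Mttp, Pglyrp2, Shmt2, Spp1 and Vldlr, 7 for Abcc4, Cyp2d9, Hsd3b2, Acaa2, Stab1 and Traf6. The count of 3138 genes ranged from 2301 to 3204 without a chow library and from 2864 to 3662 without a fast food library. It was 3162 with RLE factors (1501 higher and 1661 lower), 2515 in a fit to the 2 chow groups and 3587 with DESeq2. With 2 against 2 chow libraries on each side, it was 3319 at a low and 3 at a high rRNA-like share. The 519 genes that differed between the meals ranged from 174 to 674 without a chow library and from 164 to 1494 without a fast food library. They became 143 with the rRNA-like share as covariate, 262 with the share split as a term, 1851 without the 3 libraries of high acute phase transcripts and 1120 with DESeq2. The 790 genes of the fast food comparison ranged from 78 to 1102 with a library left out, and were 0 with the share as covariate (1578 at an unadjusted p under 0.05), 0 with the split as a term (1677) and 1547 with DESeq2. The cause of these moves was not tested. Other counts of list members that moved by over 1.5 times, beside those given with their lists, were CAR and PXR genes lower (8 to 4) and major urinary proteins lower (11 to 7) with no filter, endotoxin sensing higher (4 to 2 with no filter or the replicate block, 1 with the 2 chow groups) and lower (1 to 3 without the 3 libraries), and heat shock genes higher (2 to 4 without the 3 libraries, 1 with no filter or the 2 chow groups).

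Among the genes named, directions turned only for some that were not called. With a chow library left out in turn, the log2 fold change ranged from -1.17 to 4.35 for Saa1, -0.99 to 5.26 for Saa2, -0.28 to 2.48 for Cd14, -0.38 to 0.40 for Pck1, -0.46 to 0.58 for G6pc, -0.62 to 0.0726 for Nr0b2 and -0.23 to 0.0761 for Cela1. The turns came without antibiotic replicate 4 (Saa1, Saa2 and Cd14), antibiotic replicate 3 (Pck1 and G6pc) and control replicate 4 (Nr0b2 and Cela1). In the low-share libraries Cd14 was -0.10, and in the high-share libraries Pck1 was -0.59, G6pc -0.52 and Cela1 0.15. Pck1 was -0.00518 with the share as covariate and -0.018 with the split as a term. The depth of 8954378 to 18954655 counts limits genes near 1 CPM most.

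The same replicate numbers showed no pairing: 0 of 4 numbers correlated best with their own. A replicate block gave 2916 genes with chow, 738 with fast food and 355 that differed between the meals, and turned Pck1 (-0.0848) and G6pc (-0.0508). Fits without a fast food library were chosen after seeing the data, and the libraries rich in acute phase RNA were themselves picked from these data.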

Other observations

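Retinoid genes moved in both directions. Of 23 tested members 6 were higher and 8 lower with antibiotic water after chow. Cyp26a1, which degrades retinoic acid, rose from between 4.24 and 5.8 to between 4.69 and 40.5 CPM (1.84 ± 0.46) with overlapping groups, while the receptor gene Rara fell (-0.98 ± 0.24). Apolipoprotein and lipoprotein genes were higher at 6 of 23 and lower at 5. Apoc3, an inhibitor of lipoprotein lipase, rose from 721 ± 183 to 1446 ± 153 CPM (1.00 ± 0.18), and Apoh rose as well (0.94 ± 0.15). Pltp, the phospholipid transfer protein gene, fell (-1.72 ± 0.31), as did Vldlr, Apof (-0.79), Scarb1 (-0.56) and Mttp (-0.43).

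Beside 10.6% higher and 13.2% lower of all tested genes, 3 of 19 clock genes were higher, Cry1 (1.31 ± 0.21) and Per1 among them. Of the 19, 4 were lower, Bhlhe41 (-2.41), Npas2 (-2.12), Dbp (-1.79) and Nr1d1 (-1.03). The higher count was 5 without antibiotic replicate 4 and 6 without the 3 libraries rich in acute phase RNA. The lower count was 1 without control replicate 1 or 4 or antibiotic replicate 2 or 4, and it was 2 without antibiotic replicate 1 or fast food control replicate 2 or 4, without those 3 libraries, in the fit to the 2 chow groups, with no filter and with a stricter one. The core genes Arntl (0.88 ± 0.43, adjusted p = 0.155) and Per2 (0.34 ± 0.17, adjusted p = 0.154) were not called. The time of day at harvest was not given in the sources at hand.

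Some genes with wide differences lie below the level minimum of the naming rule and were chosen after their values were seen. Cela2a, a pancreatic elastase, was at 0.429, 0.0687, 0.0991 and 0 CPM in control and 11.3, 9.81, 13.1 and 18.6 CPM in antibiotic libraries. Of 10 pancreatic acinar markers only Cela2a and Cela1 (-0.10 ± 0.19, not called) passed the filter on low counts, and Prss1 and Amy2b were at 0 in all 8 libraries. The metalloproteinase gene Mmp12 was at 0, 0.412, 0.347 and 0.157 CPM and 10.1, 3.5, 3.38 and 20.6 CPM, and Moxd1 at 0.107, 0, 0 and 0 CPM and 4.11, 2.28, 9.34 and 0.568 CPM, the last with a high spread among antibiotic libraries. The interferon-induced Gbp2b was at 0.966, 0.961, 11.6 and 0.732 CPM in control and 0.0555, 0, 0 and 0 CPM in antibiotic libraries.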
